A study of Oryza sativa with 8 samples.

Results

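Brassinosteroids are plant steroid hormones that promote cell elongation and, in rice, open the angle between leaf blade and stem. They are made from plant sterols by a reductase and a series of cytochrome P450 enzymes, and enzymes of the CYP734A family hydroxylate the finished hormones into inactive forms. In rice, applied hormone is known to lower transcripts of several synthesis genes and to raise those of CYP734A genes. The genes described here are 8 of synthesis (DWF4, D11, CYP90A3, CYP90A4, D2, CYP90D3, BRD1 and BRD2) and 2 of breakdown (CYP734A4 and CYP734A6), 10 of the 32166 genes in the deposited table. They were chosen by identifier for their known roles, but with earlier results of these data known. The values of a gene's transcripts were summed.

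Leaf RNA of rice cultivar ZH11 was sequenced in 8 libraries of 3 genotypes, all from flag leaves of plants grown in a chamber at 30 °C by day and 24 °C by night. Of the wild type there were 2 libraries, which the titles number 1 and 3. The titles of all 8 libraries also carry the letters CK, whose meaning was not taken up here. GSK2-RNAi, with 3 libraries, is labelled as carrying an RNA interference construct named for GSK2, a kinase that restrains brassinosteroid signalling. GSK2-RNAi oswrky53, called the double line here, had 3 libraries and by its label adds a mutation of WRKY53, a transcription factor gene. By the labels both lines have the construct and 1 of them the mutation. The sources used here give neither the construct's promoter nor the kind of mutation, the number of independent lines or whether libraries came from separate plants, and p-values measure only the spread between these samples. The labels name the heading stage, whereas the series text names booting.

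Values are normalized counts as the authors deposited them. Their sum over all transcripts was 20.9 to 21.7 M in the GSK2-RNAi-labelled libraries and 25.98 to 28.03 M in the other 5. Approximate depths, estimated from the value that 1 read seemed to have among the low values of each library, also differed by group. They were 29.2 to 38.8 M reads in the wild type, 19.9 to 23.2 M in the GSK2-RNAi-labelled libraries and 24.3 to 24.8 M in the double line. GSK2 itself stood at 105 and 98.5 in the wild type, at 795, 741 and 820 in the GSK2-RNAi-labelled libraries and at 182, 219 and 155 in the double line. The transcript was therefore higher, not lower, in the GSK2-RNAi-labelled libraries (log2 fold change 2.94 ± 0.17 SE, adjusted p = 0.000107 by limma), and groups keep the names that the labels give. GSK2 fell by 2.09 ± 0.15 log2 units in the double line against the GSK2-RNAi-labelled libraries (adjusted p = 0.00067 by limma), so no library showed less GSK2 transcript than the wild type and the lines labelled with the construct were unequal in it. Whether the labels match the libraries, and whether reads of the construct were counted as GSK2, was not tested, and each comparison is between libraries as labelled. WRKY53 rose by 1.15 ± 0.26 in the GSK2-RNAi-labelled libraries against the wild type (adjusted p = 0.0152 by limma). It differed by 0.03 between the lines labelled with the construct (adjusted p = 0.939 by limma).

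The first comparison set the GSK2-RNAi-labelled libraries against the wild type, which differ by the construct according to the labels. Of the 8 synthesis genes 4 fell in the GSK2-RNAi-labelled libraries and 0 rose. Both breakdown genes rose, but CYP734A6 passed the filter on low values only through the lines where it is high, and its call was lost in 4 of 16 alternative settings. The genes that fell were DWF4, D2, BRD1 and CYP90A4, and their mean levels came to between 8.17% and 46.3% of the wild type means. These 6 calls stand beside 24.8% of all 25325 genes called in this comparison, 13.3% upward and 11.6% downward, by limma with a Benjamini-Hochberg adjusted p under 0.05. Of the genes called 53.5% were higher, and 84.6% once libraries were scaled to equal totals. For 9 of the 10 genes the groups did not overlap, 4 higher and 5 lower, where 55.3% of all genes had groups apart, 29.1% higher and 26.2% lower. The median log2 fold change of the 8 synthesis genes was −1.05, against 0.02 over all genes tested. In bulk leaf RNA, fewer cells of a type and less RNA per cell cannot be told apart.

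**Figure D1:**
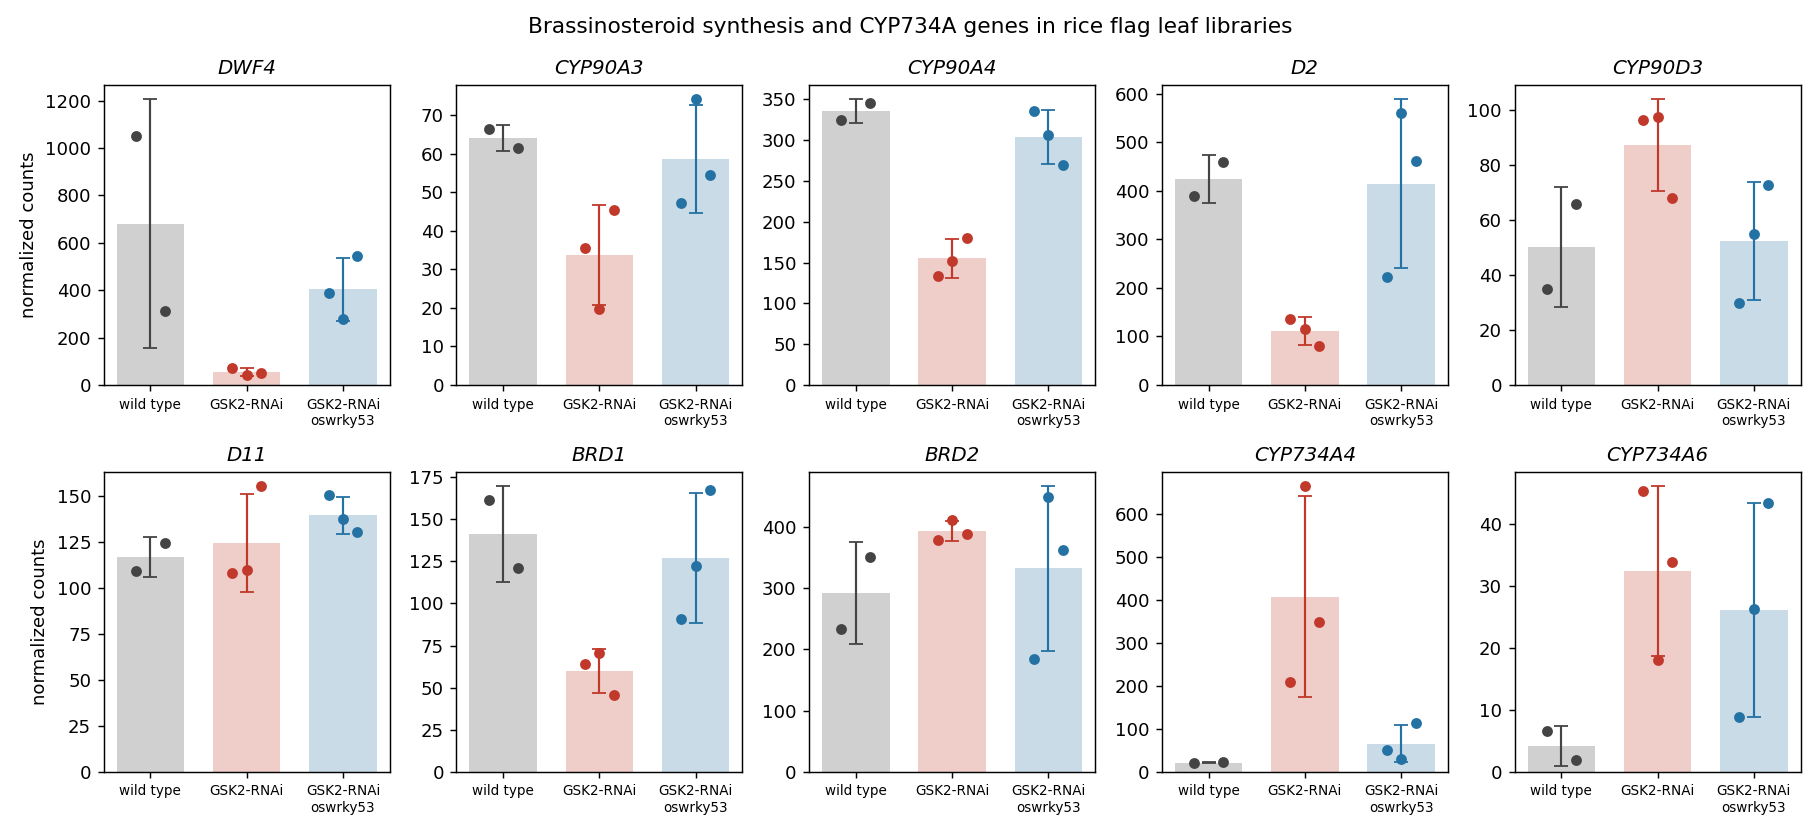
Normalized counts of the 10 genes in each of 8 flag leaf libraries (points), with the group mean (bar) and SD (line) for the wild type (n = 2), GSK2-RNAi (n = 3) and GSK2-RNAi oswrky53 (n = 3). Each panel has its own axis from 0, and in the panels of DWF4, D2, BRD1, CYP90A3 and CYP90A4 all 3 GSK2-RNAi-labelled libraries lie below the other 5.

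DWF4 (Os03g0227700, chromosome 3) encodes a hydroxylase of the steroid side chain that acts early in synthesis. It had 1053 and 311 normalized counts in the wild type, 73.5, 43.9 and 49.6 in the GSK2-RNAi-labelled libraries, and 389, 279 and 543 in the double line. The wild type libraries differed widely, yet the lower of them was above each GSK2-RNAi-labelled library. The fall was 3.37 ± 0.50 log2 units (± SE; adjusted p = 0.00275 by limma), and 0.272% of the genes tested had a lower value. Its size depends on the wild type library used, with a log2 fold change of −2.49 without wild type replicate 1 and −4.25 without wild type replicate 3 (adjusted p = 0.0114 and 0.00268 by limma).

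D11 (Os04g0469800, chromosome 4) encodes a second P450 with which DWF4 is known to share its step in rice. It had 109 and 124 normalized counts in the wild type, 108, 109 and 155 in the GSK2-RNAi-labelled libraries, and 150, 137 and 130 in the double line. The wild type and GSK2-RNAi libraries overlap, unlike those of DWF4. The log2 difference between the GSK2-RNAi-labelled libraries and the wild type was 0.07, with a 95% interval from −0.42 to 0.57 (adjusted p = 0.835 by limma), and with quantile normalization its sign changed (−0.09).

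D2 and CYP90D3 are related P450 genes of another side chain hydroxylation. D2 (Os01g0197100, chromosome 1) was at 390 and 460 normalized counts in the wild type, at 136, 116 and 80.4 in the GSK2-RNAi-labelled libraries, and at 222, 560 and 462 in the double line. Every GSK2-RNAi-labelled library was below the other 5, and D2 fell by 1.96 ± 0.38 log2 units relative to the wild type (± SE; adjusted p = 0.00837 by limma). CYP90D3 (Os05g0200400, chromosome 5) was at 34.8 and 65.6 in the wild type, at 96.3, 97.3 and 67.9 in the GSK2-RNAi-labelled libraries, and at 29.7, 54.7 and 72.6 in the double line. All 3 GSK2-RNAi-labelled libraries were above the wild type, one of them only just. The log2 difference of 0.83, with a 95% interval from −0.15 to 1.81, did not pass the threshold (adjusted p = 0.191 by limma).

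CYP90A3 and CYP90A4 are near-identical copies on chromosomes 11 and 12 and correspond to the Arabidopsis oxidase gene CPD. The authors' counting could divide shared reads between them, so the split between the copies is uncertain. CYP90A4 (Os12g0139300) was at 325 and 346 normalized counts in the wild type, at 133, 152 and 181 in the GSK2-RNAi-labelled libraries, and at 336, 306 and 270 in the double line. The GSK2-RNAi-labelled libraries formed a separate lower group, and the fall was 1.12 ± 0.18 log2 units (± SE; adjusted p = 0.00364 by limma). CYP90A3 (Os11g0143200) was at 66.4 and 61.6 in the wild type, at 35.7, 19.7 and 45.4 in the GSK2-RNAi-labelled libraries, and at 47.2, 74.2 and 54.4 in the double line. Here too the GSK2-RNAi-labelled libraries were lower than the other 5, by a narrow gap. With a log2 difference of −0.99 and a 95% interval from −1.86 to −0.11, CYP90A3 missed the threshold (adjusted p = 0.0945 by limma).

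BRD1 (Os03g0602300, chromosome 3) encodes the P450 oxidase that forms castasterone, the main active brassinosteroid of rice. It had 162 and 121 normalized counts in the wild type, 63.8, 70.8 and 45.4 in the GSK2-RNAi-labelled libraries, and 91.0, 122 and 168 in the double line. The GSK2-RNAi-labelled libraries were the lowest 3, and BRD1 fell by 1.23 ± 0.31 log2 units (± SE; adjusted p = 0.0235 by limma). BRD1 missed the threshold without wild type replicate 1 (adjusted p = 0.133), without GSK2-RNAi replicate 3 (0.0653) and with libraries scaled to equal totals (0.0699). BRD2 (Os10g0397400, chromosome 10) encodes a reductase of the sterol precursors. It had 233 and 351 normalized counts in the wild type, 380, 412 and 388 in the GSK2-RNAi-labelled libraries, and 185, 450 and 362 in the double line. The last group spanned all the others, and the difference of 0.46 between the GSK2-RNAi-labelled libraries and the wild type was not called (95% interval −0.34 to 1.25, adjusted p = 0.373 by limma).

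CYP734A4 (Os06g0600400, chromosome 6) had the largest rise of the 10 genes in this comparison. It had 20.2 and 21.8 normalized counts in the wild type, 210, 665 and 347 in the GSK2-RNAi-labelled libraries, and 51.5, 30.5 and 113 in the double line. The 3 groups were fully separate, with the wild type lowest and the GSK2-RNAi-labelled libraries highest, although these differed among themselves. The mean was 19.4-fold above the wild type, the log2 fold change was 4.06 ± 0.59 (± SE; adjusted p = 0.0026 by limma), and 0.952% of the genes tested had a higher value.

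CYP734A6 (Os01g0388000, chromosome 1) was scarce in the wild type, at 6.52 and 1.90 normalized counts, or about 9 and 2 reads. It was at 45.4, 18.0 and 34.0 in the GSK2-RNAi-labelled libraries and at 8.82, 26.3 and 43.4 in the double line. All 6 libraries labelled with the construct lay above the wild type. All 10 genes passed the filter on low values, but CYP734A6 passed only through the lines labelled with the construct, being under 10 in the wild type. Between the GSK2-RNAi-labelled group and the wild type it rose by 2.75 ± 0.74 log2 units (± SE; adjusted p = 0.0282 by limma). CYP734A6 missed the threshold without wild type replicate 3 (2.06, adjusted p = 0.15) and when GSK2-RNAi replicate 1 or 3 was left out (adjusted p = 0.082 and 0.0756), and the value was 3.43 without wild type replicate 1 (adjusted p = 0.0423). With a pseudocount of 10 in place of 1 the log2 fold change was 1.54. Its relative CYP734A2 (Os02g0204700) was at 14.4 and 0 in the wild type and between 5.41 and 27.8 in the GSK2-RNAi-labelled libraries, with no call in any of the 3 comparisons.

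**Figure D2:**
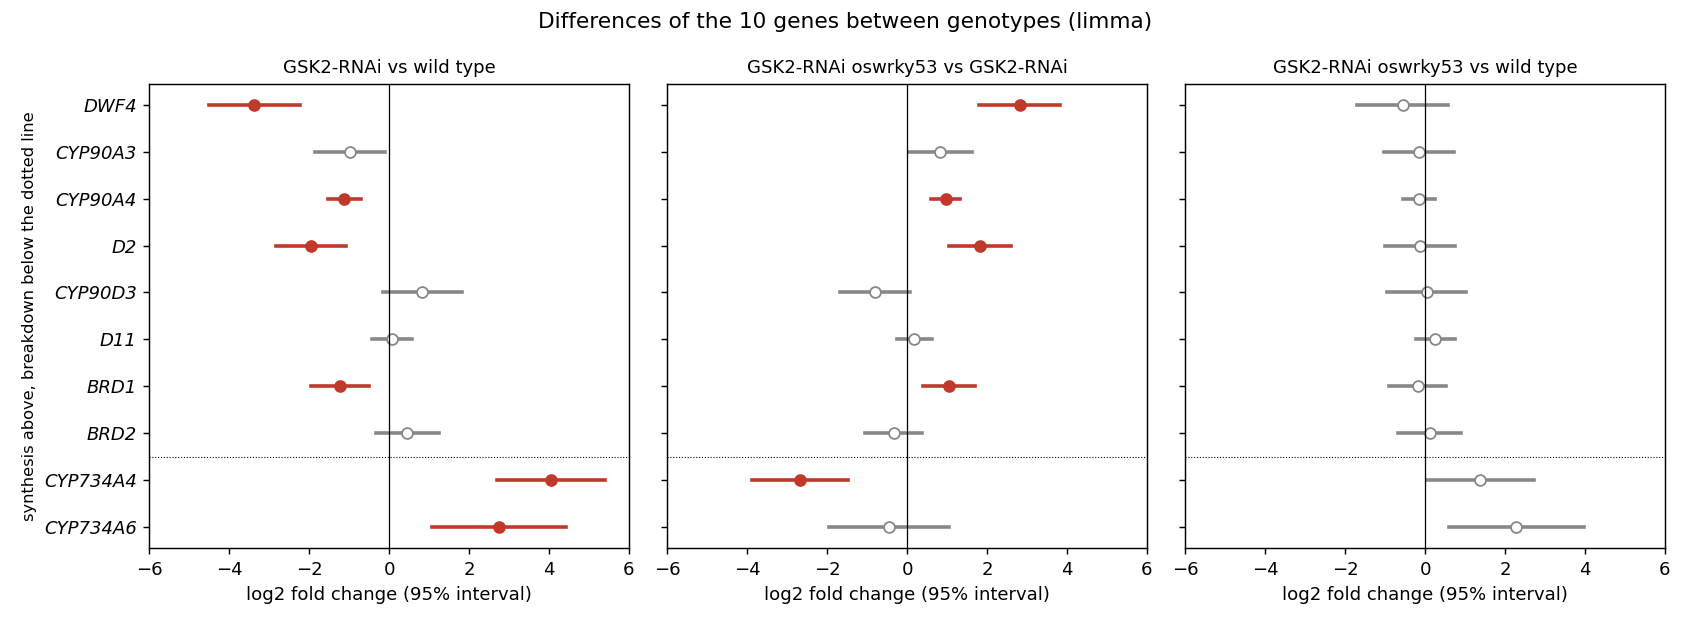
Log2 fold changes of the 10 genes in the 3 comparisons (horizontal axis), with 95% intervals from limma; filled red points passed an adjusted p of 0.05 over all genes and open grey points did not. In the left panel 5 synthesis genes lie below 0, of which 4 passed, and both CYP734A genes lie above it. In the right panel 0 of 10 genes passed.

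The second comparison set the double line, GSK2-RNAi oswrky53, against GSK2-RNAi, which by the labels differ in the WRKY53 mutation. The transcript levels of the targeted genes do not show this difference alone, since GSK2 differed between these lines and WRKY53 was not called. Of the 8 synthesis genes 4 rose and 0 fell, and of the 2 breakdown genes CYP734A4 fell. In this comparison 16.5% of all genes were called, 8.78% upward and 7.7% downward. Of those called 53.3% were higher, and 15.6% with equal totals. The median log2 fold change of the synthesis genes was 0.90, against −0.01 over all genes. It shares the GSK2-RNAi-labelled libraries with the first comparison, so opposite signs in the pair are not independent. DWF4 rose by 2.82 ± 0.44 log2 units (± SE; adjusted p = 0.00655 by limma), a 7.25-fold higher mean, and 0.462% of the genes tested had a higher value. D2 rose by 1.82 ± 0.34 (adjusted p = 0.012 by limma), with its lowest library in the double line, at 222, still above the highest labelled GSK2-RNAi, at 136.

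CYP90A4 rose by 0.97 ± 0.16 log2 units (± SE; adjusted p = 0.00738 by limma), so its mean went from 155 ± 24.0 to 304 ± 32.9 normalized counts (SD, n = 3 each). BRD1 rose by 1.05 ± 0.28 (adjusted p = 0.0386 by limma), but it missed the threshold when GSK2-RNAi replicate 1, 2 or 3 was left out (adjusted p = 0.0816, 0.0744 and 0.114), or double-line replicate 2 or 3 (0.0847 and 0.113). It also missed it with an eBayes fit that had no trend (0.0525) and with equal totals (0.0877). CYP90A3 was higher by 0.84 without a call (adjusted p = 0.132 by limma). CYP734A4 fell by 2.67 ± 0.53 (± SE; adjusted p = 0.0139 by limma), a 6.25-fold lower mean, and the call was lost without GSK2-RNAi replicate 2, its highest library (adjusted p = 0.053). Without that library 3 of the 10 genes were called rather than 5.

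The other 4 genes were not called in the second comparison. CYP734A6 differed by −0.46 with a wide 95% interval from −1.97 to 1.05 (adjusted p = 0.675 by limma), CYP90D3 by −0.80 (−1.67 to 0.08, adjusted p = 0.191) and BRD2 by −0.33 (−1.04 to 0.37, adjusted p = 0.499). D11 differed by 0.18 (−0.26 to 0.62, adjusted p = 0.562), and by −0.13 with libraries scaled to equal totals. For 6 of the 10 genes the groups did not overlap, 5 of them higher and 1 lower in the double-line libraries, where 39.2% of all genes had groups apart, 20% higher and 19.1% lower.

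**Figure D3:**
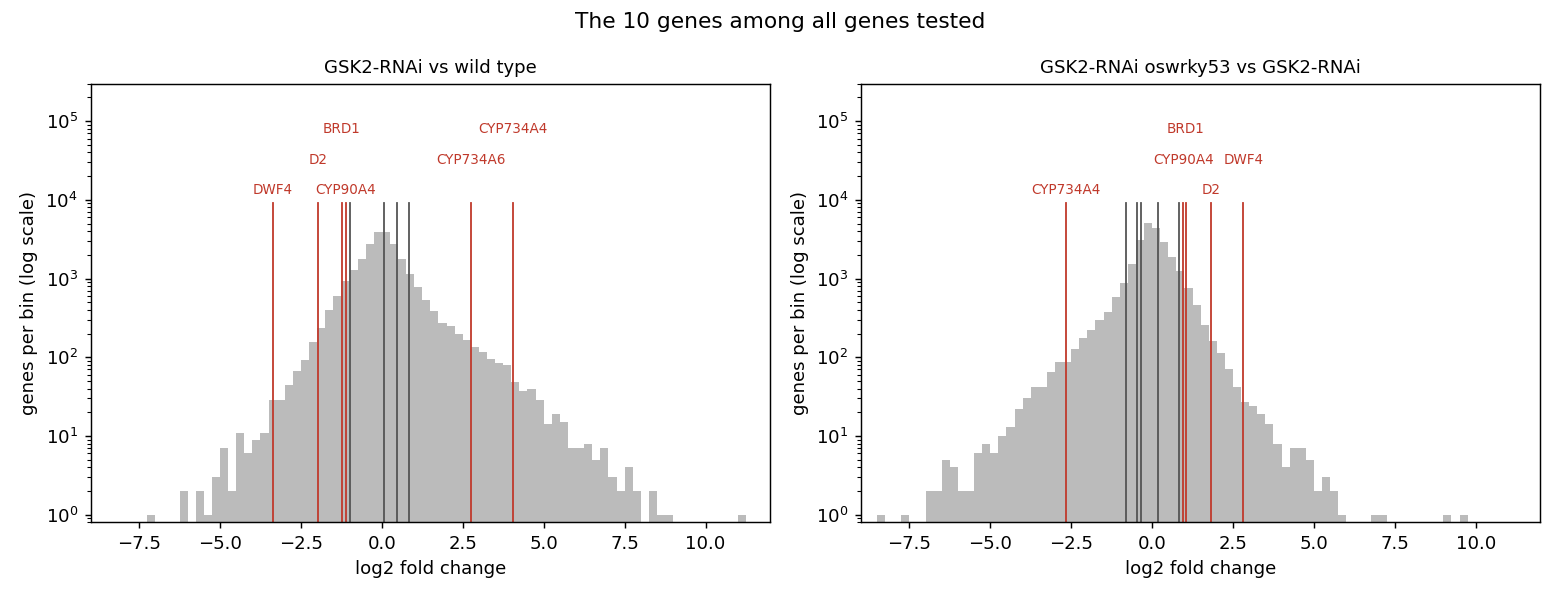
Distribution of log2 fold changes over all 25325 genes tested (grey bars, bins of 0.25, genes per bin on a log scale) in the first 2 comparisons, with vertical lines at the 10 genes; red, named lines passed an adjusted p of 0.05. DWF4 lies in the outer lower tail at −3.37 on the left and in the upper tail at 2.82 on the right, while the dark unnamed lines of genes that were not called lie within 1 of 0.

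The third comparison set the double line against the wild type, and it shares libraries with each of the others. Here 0 of the 10 genes were called by limma, with 0.336% of all genes called, 0.308% upward and 0.0276% downward. An unadjusted p under 0.05 by limma was found for 2 of the 10, CYP734A4 (0.0448) and CYP734A6 (0.0137), and for 3283 of all 25325 genes. CYP734A6 passed the filter on low values only through the lines labelled with the construct. The synthesis genes D2, CYP90A3, CYP90A4 and BRD1 had means between 89.8% and 97.5% of the wild type, and DWF4 was at 59.2%. The DWF4 value depends on the wild type library used, with a log2 difference of −0.55 that became 0.32 without replicate 1 and −1.43 without replicate 3. The median log2 fold change of the synthesis genes was −0.14, against 0.02 over all genes. Their 95% intervals still allow sizeable differences, from −1.69 to 0.58 on the log2 scale for DWF4 and from −1.01 to 0.74 for D2. CYP734A4 differed by 1.39 (0.04 to 2.73, adjusted p = 0.373 by limma) and CYP734A6 by 2.29 (0.60 to 3.97, adjusted p = 0.258). Both breakdown genes, together with D11, were higher in all 3 libraries of the double line than in either wild type library, a separation seen upward for 15.7% and in either direction for 27.3% of all genes.

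Pairs of genes with the same or a like role were compared within each library. There the scaling of a library cancels except at low values, since 1 was added to each value. These 4 pairs were chosen with the values known, and the level of a ratio also depends on transcript length, so only its change between groups is described. The log2 ratio of DWF4 to D11 was 3.26 and 1.32 in the wild type, −0.55, −1.30 and −1.63 in the GSK2-RNAi-labelled libraries, and 1.37, 1.02 and 2.05 in the double line. For D2 to CYP90D3 it was 3.45 and 2.79, then 0.50, 0.25 and 0.24, then 2.86, 3.33 and 2.65. In both pairs the GSK2-RNAi-labelled libraries stood apart from the other 5. Of single genes, 55.3% had these libraries apart from the wild type and 39.2% had them apart from the double line. The share over all pairs of genes was not computed. The mean log2 ratio was lower than in the wild type by 3.45 for DWF4 to D11 and by 2.79 for D2 to CYP90D3 (exact permutation test, two-sided, p = 0.1 each, the smallest that these group sizes allow; adjusted p = 0.3 over 12 tests).

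The log2 ratio of CYP90A4 to CYP90A3 averaged 2.37 in the wild type, 2.24 in the GSK2-RNAi-labelled libraries and 2.38 in the double line, and the groups overlapped in each comparison (exact permutation p of 0.7 or more, adjusted p of 0.84 or more). Since the counting could divide shared reads between these copies, their ratio cannot show whether they respond alike. For CYP734A4 to CYP734A6 the mean log2 ratio was 2.23, 3.54 and 1.33, with overlapping groups. In the wild type this ratio rests on about 9 and 2 reads of CYP734A6. The GSK2-RNAi-labelled libraries ranged from 2.18 to 5.13, and the mean was 2.21 lower in the double line than in them (exact permutation test, two-sided, p = 0.2, adjusted p = 0.48). With a smallest possible p of 0.1, these tests cannot show whether the paired genes differ in response.

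**Figure D4:**
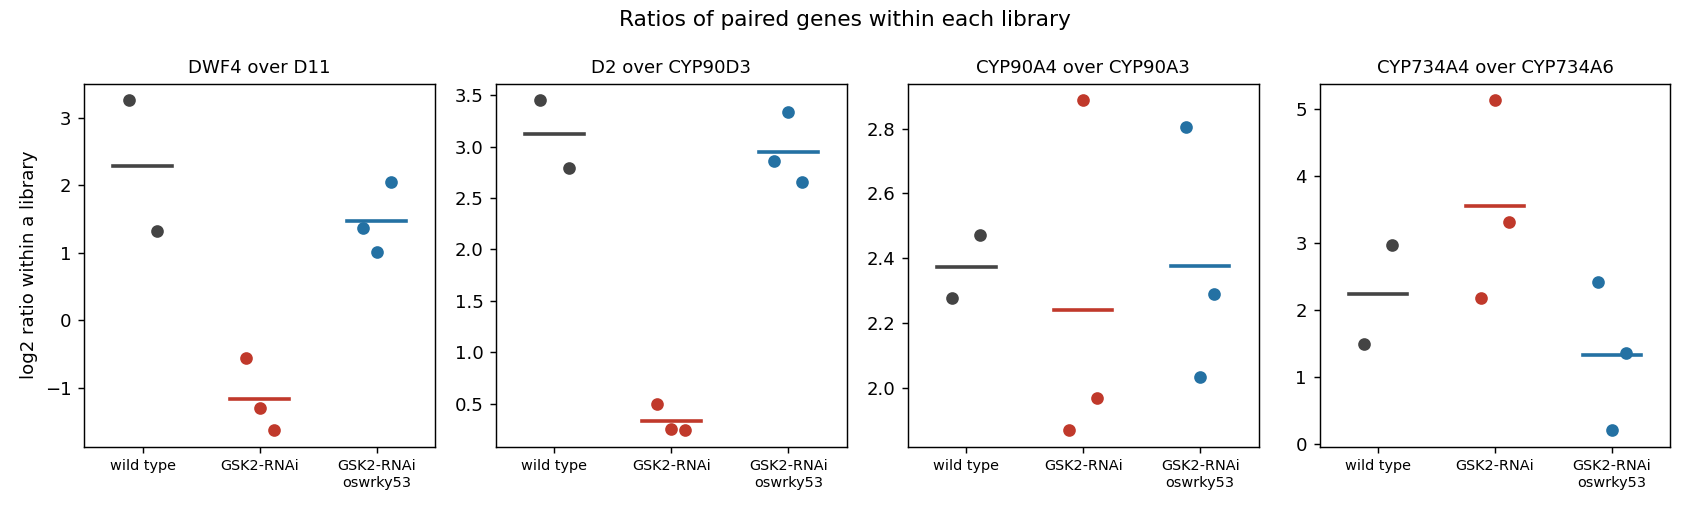
Log2 ratio of 2 genes within each library (points) with the group mean (line), for 4 pairs of like role in the wild type, GSK2-RNAi and GSK2-RNAi oswrky53. The DWF4 to D11 and D2 to CYP90D3 ratios are lowest in all 3 GSK2-RNAi-labelled libraries, while the CYP90A4 to CYP90A3 ratio overlaps between the groups.

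D2 and D11 were the genes with more than 1 transcript in the table. The first D2 transcript, Os01t0197100-01, held 69.5% ± 6.11 of the D2 total in the wild type (SD, n = 2), 77.0% ± 8.12 in the GSK2-RNAi-labelled libraries and 80.5% ± 3.25 in the double line (SD, n = 3 each). Fitted one by one over 30566 transcripts, both D2 transcripts fell in the GSK2-RNAi-labelled libraries, Os01t0197100-01 by 1.81 ± 0.39 and Os01t0197100-02 by 2.37 ± 0.55 log2 units (± SE; adjusted p = 0.0165 and 0.0216 by limma). In the double line against the GSK2-RNAi-labelled libraries, Os01t0197100-01 rose by 1.89 ± 0.35 (adjusted p = 0.0156 by limma). Os01t0197100-02 was higher by 1.59 and missed the threshold (adjusted p = 0.0721 by limma). Neither D11 transcript was called, and Os04t0469800-01 held between 86.0% and 87.4% of the D11 total on average in each group. The transcript fit was added after the values were seen.

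Among 13 genes of brassinosteroid signalling with a checked name, 12 were tested. In the GSK2-RNAi-labelled libraries against the wild type 3 rose and 2 fell, with a median log2 fold change of −0.39. The genes that fell were the hormone receptor gene BRI1, by 1.30 ± 0.24, and the kinase gene GSK4, by 1.25 ± 0.14 log2 units (± SE; adjusted p = 0.00644 and 0.00104 by limma). Those that rose were GSK2 and the transcription factor genes BZR1, by 0.75 ± 0.16, and BZR2, by 0.72 ± 0.12 (adjusted p = 0.0105 and 0.00449 by limma). BRI1 was at 215 and 258 normalized counts in the wild type, between 90.5 and 104 in the GSK2-RNAi-labelled libraries and between 187 and 322 in the double line, so the group that was lowest for DWF4 and D2 was lowest here too. In the double line against the GSK2-RNAi-labelled libraries 2 rose, BRI1 by 1.38 and GSK4 by 0.62 (adjusted p = 0.00607 and 0.0136 by limma), and 1 fell, GSK2. Of the same 12 genes 0 were called between the double line and the wild type. GSK2, GSK4, BZR1, BZR2 and the G protein gene D1 had an unadjusted p under 0.05 by limma, which 3283 of all 25325 genes had in this comparison.

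Of the cell type markers, those of photosynthetic cells were called in both of the first 2 comparisons. The 3 genes of photosynthetic leaf cells with a checked name (PSB28, GS2 and PORB) all fell in the GSK2-RNAi-labelled libraries and all rose in the double line against them. Added together, they came to 82096 and 89766 normalized counts in the wild type, 26681 to 34787 in the GSK2-RNAi-labelled libraries and 59468 to 77025 in the double line, so leaf tissue was present in each. LG1, a gene of the ligule and leaf joint, was at 37.5 and 52.1 in the wild type, between 20.5 and 28.5 in the GSK2-RNAi-labelled libraries and between 55.5 and 73.1 in the double line. It rose by 1.37 ± 0.26 on the log2 scale in the double line against the GSK2-RNAi-labelled libraries (± SE; adjusted p = 0.0132 by limma), while its difference of −0.83 from the wild type was not called (adjusted p = 0.075). Of 3 genes of dividing cells 2 were tested, PCNA and CDKB2-1, and neither was called in any comparison. The 3 together summed to 186 and 310 in the wild type, 249 to 265 in the GSK2-RNAi-labelled libraries and 290 to 364 in the double line. Of 4 floral organ genes MADS1 alone passed the filter on low values, without a call. MADS7 was at 0 in all 8 libraries, MADS6 in those of the wild type, and MADS8 in those of both lines labelled with the construct. The 4 together summed to 42.7 and 199 in the wild type, 76.6 to 221 in the GSK2-RNAi-labelled libraries and 176 to 552 in the double line. The part of tissue makeup in the changes of the synthesis and breakdown genes was not tested.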

How the data were processed

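The authors deposited normalized counts, treated here as a signal at or above 0, for 38335 transcripts in 8 libraries. The submitters' processing notes name kallisto 0.46.1 and DESeq2 1.26.0 as tools and IRGSP-1.0 as build, without their roles. How values were normalized, and whether strand was used, is not stated there. Low values lay near multiples of what 1 read is worth, but not on them in every library, so tests for read counts were not used.

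Transcript values were added up per gene. A gene was tested where 2 or more libraries had a value of 10 or higher, which left 25325. Values were transformed as log2(value + 1), which understates the changes of low genes, and all 3 genotypes entered a single limma 3.58.1 fit (R 4.3.3, eBayes with trend) with p-values adjusted by Benjamini-Hochberg over all genes tested. The script was tested on simulated data for the first comparison, in which 100 genes were changed 2-fold and 100 were changed 4-fold. It called 16 of the former and 63 of the latter. Only these genes were changed among 25325, whereas 6290 were called in the real comparison, so the adjustment was stricter in the simulation. The counts therefore do not give the recovery in the real data, where a gene without a call may still differ. Pair ratios and figures were made with Python 3.11.15 and matplotlib 3.10.9. Alternatives were another pseudocount, filter, scaling or variance model, the replicate block, only the groups compared, leaving out each library, and single transcripts.

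The members and lists were chosen with earlier results of these data known. Names were paired with identifiers by hand, and 8 of the 10 stand in the reference table (assembly ASM3414082v1) on the same chromosome and in the same order. CYP90D3, BRD2 and WRKY53 were not found in it by name, so these names are unchecked. Of 41 other names, 25 passed and had values. None of the sterol precursor names passed, and that list was not used. By rule all 10 genes, list members that were called, and the named genes most alike in pattern to DWF4 and CYP734A4 are named. A planned motif search was not run, since no promoter sequence was used here. Coordinates are left out, as the reference table has another build.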

Additional observations from a re-analysis of the deposited data

How the results depend on the processing

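Of 480 repeats of the 30 gene differences under 16 alternative settings, 445 kept direction and side of the threshold. This count overstates stability, since some settings, such as the fit without trend, leave the fold change as it was. Of the 445, 148 belong to the third comparison, where 0 of the 10 genes were called. DWF4, D2 and CYP90A4 kept their calls in the first 2 comparisons under all 16, and CYP734A4 in the first, while the second D2 transcript fitted alone missed the threshold in the second. With libraries scaled to equal totals the median of all genes moved to 0.40 and −0.32 in these comparisons, 9515 and 7338 genes were called, and 84.6% and 15.6% of them were higher, against 53.5% and 53.3%. Leaving out 1 library gave 3670 to 6911, 1575 to 4354 and 53 to 64 calls in the 3 comparisons, against 6290, 4172 and 85, and 3 to 5 called members in the second. Leaving out GSK2-RNAi replicate 2 gave 3670 calls in the first and leaving out wild type replicate 1 gave 3727. The second had 2374, 1575 and 2136 without GSK2-RNAi replicate 1, 2 or 3 and 2302 without GSK2-RNAi oswrky53 replicate 3, and the third had 54, 53 and 53 without wild type replicate 1 or 3 or GSK2-RNAi oswrky53 replicate 2. With only the 2 groups compared the third had 44. Same-numbered libraries did not deviate together (correlations from −0.21 to 0.15). With so few libraries per group this check cannot exclude that the numbers pair them. With the replicate block 3894, 2621 and 32 genes were called, and BRD1 (adjusted p = 0.0659 and 0.0884) and CYP734A6 (0.0772) lost their calls.

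Signs that turned belonged to differences that were not called. In the first comparison D11 ranged from −0.10 to 0.17 without 1 library and was −0.0885 with quantile normalization. In the second, BRD2 ranged from −0.60 to 0.0385 and CYP734A6 from −0.94 to 0.15 without 1 library, and D11 was −0.13 with equal totals and −0.00382 for its second transcript alone. In the third, without 1 library DWF4 ranged from −1.43 to 0.32, D2 from −0.40 to 0.26, BRD1 from −0.41 to 0.0313, BRD2 from −0.17 to 0.49 and CYP90D3 from −0.41 to 0.49. There CYP90D3 was −0.11 with quantile normalization and −0.0435 with the replicate block, BRD2 −0.0285 with the replicate block, and D2 0.0796 for its first transcript alone. The cause was not tested. Depth limits CYP734A6 most, at about 2 reads in 1 wild type library.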

Other observations

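Among 16 genes with a checked name and a mean of at least 50 that are not themselves synthesis or breakdown genes, the patterns most like that of DWF4 over the 8 libraries were those of PSB28, a photosystem II gene, GS2, a plastid glutamine synthetase gene, the ubiquitin ligase gene TUD1 and BRI1. Those most like CYP734A4 were GSK2, BZR2, BAK1 and BZR1. Likeness was ranked by the correlation of log2 values, as a description only, since the libraries fall into genotype groups.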
